A study of Mus musculus with 12 samples.

Results

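Cluster 25 held 249 of the 93126 cells (0.267%) in a single-cell RNA-seq atlas of MC38 tumors, and its members were the cells that the authors' own clustering gave this number, among 27 clusters. The cluster was a mixture of cells rather than 1 type of cell. At least 2 captured transcripts of a gene list were required to call a cell. By that rule B cell genes such as Cd79a and Ms4a1 stood in 169 cells, keratin and other epithelial genes in 49 other cells, both in 2 cells and neither in 29. With 1 transcript required, 5 cells carried both and 7 neither. Of the 49 cells, 40 came from tumors without a B-marker cell in this cluster, while 120 of the 169 came from 5 tumors that held both kinds. None of the 169 came from sequencing pools 7 to 12, which gave 39 of the 49. Cells with Cd79a and Ms4a1 from those pools lay mostly in cluster 18. The split therefore follows the pools and does not show that the 2 kinds came from different tumors.

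MC38, a colon carcinoma line of C57BL/6J mice, was injected under the skin of female mice aged 8 to 12 weeks. Hosts were C57BL/6J (B6) animals or F1 animals of C57BL/6J and a Collaborative Cross strain, CC001/UncJ, CC002/UncJ, CC007/UncJ, CC036/UncJ, CC075/UncJ, CC079/TauUncJ or CC080/TauUncJ, referred to by the first part of the name. When tumors measured 75 to 110 mm3, each animal received 1 dose of 200 µg of isotype control antibody (2A3) or anti-PD-1 antibody (29F.1A12, aPD1), and the tumors were removed after 48 h and frozen. Viable cells were sorted to 90% CD45+ and 10% CD45- cells and sequenced from their 5′ ends on the 10x Genomics platform. Each of 12 pools held 4 tumors, an isotype and an aPD1 tumor of a pair of strains, which gave 3 tumors per strain and treatment, or 4 for CC001 and 2 for CC007. The study classed CC001, CC002 and CC075 as responder strains and CC036, CC079 and CC080 as non-responder strains from tumor growth in other animals, and B6 and CC007 stand in no class here. The sort fixed the proportion of CD45+ cells, so every share below is a share of the cells that were sequenced and not of the tumor. The same animal identifier stands on 2 tumors, CC080 isotype of pool 3 and CC080 aPD1 of pool 4.

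B cells recognise antigen through a surface immunoglobulin that is coupled to the signalling chains CD79A and CD79B. They present antigen to helper T cells on MHC class II molecules, and after activation can switch their heavy chain class or become plasma cells that secrete antibody. In tumors they are found scattered or gathered in lymphoid aggregates. Keratins are the intermediate filament proteins of epithelial cells, and most blood-derived cells lack them.

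Each tumor was marked by a hashtag, an antibody against MHC class I and CD45 that carries a DNA barcode, and the hashtag is what assigns every cell below to its tumor and treatment. The 4 barcodes are shown because treatment was read from them:
Hashtag 0301, isotype: acccaccagtaagac
Hashtag 0302, aPD1: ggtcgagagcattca
Hashtag 0303, isotype: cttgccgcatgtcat
Hashtag 0304, aPD1: aaagcattcttcacg
Hashtag 0302 marked 105 of the 169 B-marker cells, 0303 marked 47, 0301 marked 14 and 0304 marked 3. Of the 105, 86 came from 1 tumor, CC001 aPD1 of pool 4, without which hashtag 0302 marked 19. No barcode was used for both treatments, so an effect of the hashtag and of aPD1 cannot be told apart. Of barcodes of cells, 4990 sequences occurred in more than 1 pool and covered 10176 cells, of which 18 were in cluster 25.

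Cells were sorted into marker classes by 2 lists. The B class list held 9 genes, among them Cd79a, Cd79b, Ms4a1, Pax5, Ebf1, Bank1, Fcmr and Ighd, and the epithelial class list held 14 genes, among them Krt7, Krt8, Krt18, Krt19, Epcam and Cldn4. A cell with at least 2 UMIs (unique molecular identifiers, each 1 captured transcript) of a list and fewer than 2 of the other was called B-marker or epithelial-marker. B-marker cells made up 67.9% of the cluster (95% Wilson interval 61.8 to 73.4%, which covers counting error only), epithelial-marker cells 19.7% (15.2 to 25.1%) and cells with neither 11.6% (8.23 to 16.2%). The separation within cells was nearly complete. Of the 169 B-marker cells 166 had no epithelial class UMI, and all 49 epithelial-marker cells had no B class UMI. The median cell of the B class carried 12 B class UMIs and the median cell of the epithelial class 95 epithelial class UMIs. Just inside the threshold were 6 cells with 2 B class UMIs, just outside it 21 with 1, and no cell had 2 epithelial class UMIs while 4 had 1.

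**Figure D1:**
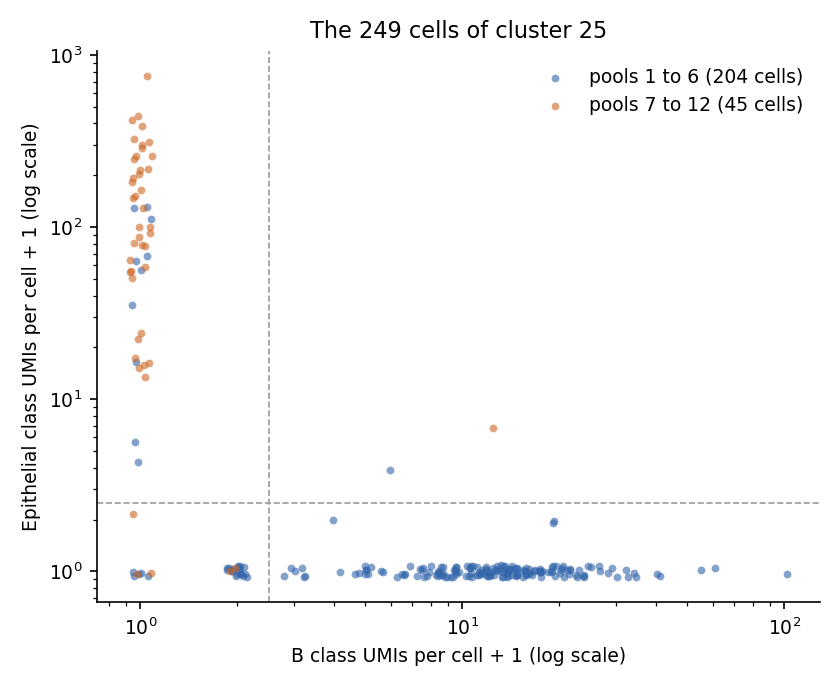
Each point is 1 of the 249 cells of cluster 25, placed by its UMIs of the B class list (x axis, UMIs + 1, log scale) and of the epithelial class list (y axis, UMIs + 1, log scale); points are shifted by a small random amount, dashed lines mark the threshold of 2 UMIs, and colors separate pools 1 to 6 (204 cells) from pools 7 to 12 (45 cells). The cells lie along both axes, with 2 cells past both thresholds, and no B-marker cell came from pools 7 to 12.

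The 2 cells with both lists were unlike each other. The one of the CC036 isotype tumor of pool 8 had 9543 UMIs, 11 B class and 6 epithelial class UMIs, and 1551 UMIs of Ighg2b, an IgG heavy chain, with 91 of Jchain, the chain that joins secreted immunoglobulins. The one of the CC007 isotype tumor of pool 6 had 4274 UMIs, of which 5 were B class and 3 epithelial class. Neither had a keratin 7, 8, 18 or 19 UMI. Doublets, droplets holding more than 1 cell, were not called here.

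Depth differed between the classes. B-marker cells had a median of 1294 UMIs and 673 genes, epithelial-marker cells 9073 UMIs and 3198 genes, and the whole series 3333.5 UMIs. When each cell was thinned to 1000 UMIs, 54 cells of the cluster were too shallow, and the rest comprised 114 B-marker cells, 48 epithelial-marker cells, 33 with neither and 0 with both. As a background, macrophage cluster 2 (18964 cells, median 3881 UMIs) had at least 2 B class UMIs in 0.316% of cells and at least 2 epithelial class UMIs in 2.77%. The lists alone were not particular to cluster 25, where 68.7% of cells had at least 2 B class UMIs and 20.5% at least 2 epithelial class UMIs. At least 2 B class UMIs were found in 67.5% of cluster 22 (393 of 582 cells, median 4199.5 UMIs), 9.61% of cluster 18 and 8.97% of cluster 20, and at least 2 epithelial class UMIs in 18.1% of cluster 14 (median 5301 UMIs). For the stricter lists the background in cluster 2 was lower. At least 2 UMIs of Cd79a and Ms4a1 together were found in 55.8% of cluster 25 (median 1532 UMIs) and in 1 cell of cluster 2 (0.00527%), and at least 2 of Krt7, Krt8, Krt18 and Krt19 in 19.3% of cluster 25 and in 0 cells of cluster 2 (upper Wilson bound 0.0203%).

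Clustering the 249 cells again on their own gave 3 groups that followed the marker classes. The first held 164 cells, 160 of them B-marker. The next held 47 cells, 46 of them epithelial-marker. The last held 38 cells, 25 of them with neither list, beside 9 B-marker and 3 epithelial-marker cells, and all 8 genes of the macrophage list reached 100 CPM there (CPM, counts per 1000000 UMIs of the summed cells). Since the same genes formed the cluster and the groups, these counts are descriptions and no test was made.

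The B-marker cells carried most genes of the B cell list. That list shares genes with the B class list that chose the cells, Cd79a, Cd79b, Ms4a1, Pax5, Ebf1, Bank1 and Ighd among them, so their presence is a description. Of the 22 genes of the B cell list 21 reached 100 CPM and none was at 0. Cd79a (chr7:24897381-24902197, plus strand, GRCm38; a protein-coding gene for the signalling chain of the B cell receptor) stood at 1728 CPM (95% Poisson interval 1588 to 1878, counting error only) and was seen in 147 of 169 cells. Its partner Cd79b stood at 589.5 CPM in 99 cells, and Ms4a1 (chr19:11249675-11266241, minus strand), which encodes the surface protein CD20, at 595.7 CPM in 97. In cluster 2 Cd79a was at 0.125 CPM. Among the transcription factors that define the lineage, Ebf1 stood at 1616 CPM in 142 cells and Pax5 at 332 CPM in 71. Bank1, an adaptor of receptor signalling, stood at 1526 CPM in 139 cells, and Cd22, an inhibitory receptor, at 204.8 CPM in 50.

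Markers of other lineages were low in the B-marker cells. None of the 10 T and NK cell genes reached 100 CPM, the 8 fibroblast genes had no UMI, and Siglech, a plasmacytoid dendritic cell marker, was at 0, though 2 of 6 genes of that cell's list, 1 of 7 dendritic cell and 1 of 7 endothelial genes reached 100 CPM. Of the 14 epithelial class genes 13 were at 0, and Epcam had 3 UMIs. Macrophage genes were not absent, with 4 of 8 at 100 CPM and a sum of 1260 CPM, led by Apoe (527 CPM in 50 cells) and Lyz2 (285 CPM in 27 cells), against 2887 CPM of Apoe in cluster 2. The source of these UMIs was not tested.

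**Figure D2:**
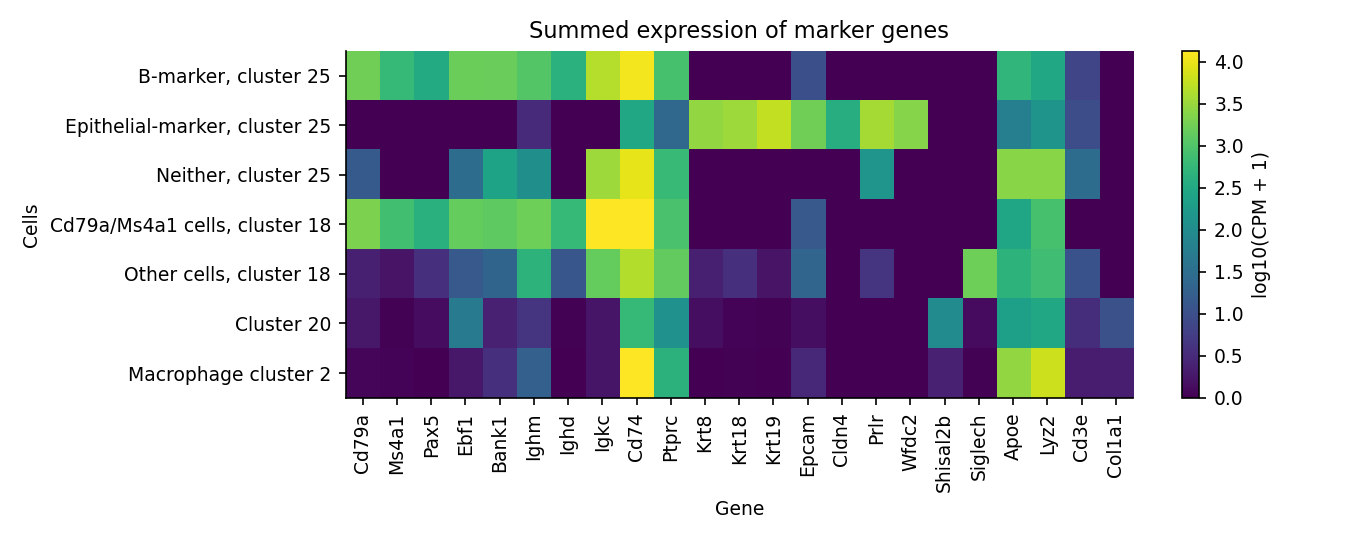
Heat map of summed expression, as log10(CPM + 1), of 23 marker genes (columns) in 3 marker classes of cluster 25, in the cells of cluster 18 with at least 2 UMIs of Cd79a and Ms4a1, in the other cells of cluster 18, in cluster 20 and in macrophage cluster 2 (rows). B cell genes are high in the B-marker cells and in the selected cells of cluster 18, keratins in the epithelial-marker cells, and keratins stay near 0 in the other rows.

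Among antigen presentation genes, all 10 MHC class II genes of the list reached 100 CPM and summed to 22645 CPM. Cd74, the invariant chain, stood at 11551 CPM and was seen in 167 of 169 cells, H2-Aa at 4102 CPM in 161, H2-Eb1 at 2876 CPM and H2-Ab1 at 2439 CPM. H2-Ob, a subunit of the peptide-loading modulator that B cells express, stood at 434 CPM in 80 cells against 4.96 CPM in cluster 2, where Cd74 was at 13423 CPM. Haplotypes of the H2 genes differ between these hosts and reads were aligned to 1 reference, so levels of these genes are uncertain between strains.

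Among the heavy chain genes, Ighm (chr12:113418558-113422730, minus strand, the IgM constant region) stood at 1077 CPM and Ighd, the IgD constant region, at 428 CPM. Ighd stands in the list that chose the cells, and Ighm and the switched classes do not, so its count cannot be compared with theirs. Both were seen in 64 of 169 cells, Ighm alone in 58, Ighd alone in 18 and neither in 29. At a median of 1294 UMIs, a cell without a UMI of either cannot be told apart from a cell in which it was missed. At least 1 UMI of a switched heavy chain (Ighg1, Ighg2b, Ighg2c, Ighg3, Igha or Ighe) was found in 21 of 169 cells (12.4%) and at least 2 in 9. Of the light chains, Igkc stood at 4635 CPM in 143 cells, Iglc2 at 1260 CPM in 120 and Iglc3 at 841 CPM in 99. Igkc and an Iglc gene were seen together in 125 of 169 cells, and Iglc without Igkc in 16. Iglv segments had a UMI in 23 cells and Igkv segments in 142. The counts of constant genes therefore do not give the share of cells that use each light chain. Iglc2 and Iglc3 are near-identical copies whose reads can be counted for one another. V segments also share sequence, so single-gene levels within the Iglc and V segment families are uncertain.

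A few cells dominated the immunoglobulin counts. Among the B-marker cells 7 had at least 5 UMIs of Jchain and Mzb1, a chaperone of immunoglobulin assembly, and they held 97.75% of the switched heavy chain UMIs, 86.7% of the V segment UMIs and 69.9% of the Igkc UMIs, but 5.48% of the Ighm UMIs. Of the 7 cells, 4 had no Jchain UMI and between 5 and 10 of Mzb1. Over the class Jchain was seen in 5 of 169 cells and still summed to 974 CPM. The highest share of immunoglobulin was in a cell of the B6 isotype tumor of pool 6 with 6992 UMIs, of which 63.1% were immunoglobulin, 768 of them Ighg1 and 75 Jchain. A cell of the CC080 isotype tumor of pool 4 had 423 Ighg2c and 110 Jchain UMIs, and a cell of the CC080 isotype tumor of pool 3 had 109 Ighg2b and 125 Jchain UMIs. Sdc1, a surface marker of plasma cells, had no UMI in these 3 cells, and Prdm1, a regulator of secretion, had 1 in all. Xbp1, another gene of the plasma cell list, had 6, 14 and 9 UMIs in the same order. Over the B-marker class 4 of 10 genes of that list reached 100 CPM, and the list summed to 2150 CPM. The 10 genes of largest fold over all other cells were 9 V segments and Ighg1. Igkv1-110, the first of them, stood at 8262 CPM, yet 2647 of its 2663 UMIs came from 1 cell, whereas Igkv17-127 stood at 183 CPM with 59 UMIs in 8 cells.

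V segment use was spread over many segments where cells were numerous. In the CC001 aPD1 tumor of pool 4, 64 of 86 B-marker cells had at least 2 kappa V UMIs, 35 different segments led in 1 or more cells, and the most used, Igkv1-135, led in 6. In the CC079 isotype tumor of pool 5 it was 16 leading segments over 21 cells, with Igkv3-4 leading in 3. Heavy chain V segments were too sparse to read in the same way, with at least 2 UMIs in 8 and 2 cells of these tumors. Over the 54 B-marker cells of the other tumors, it was 22 leading kappa segments over 37 cells, with Igkv14-126 leading in 4. Heavy chain V segments had at least 2 UMIs in 13 of the 54, and Ighv11-2 led in 3.

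Of 9 listed homing genes 6 reached 100 CPM, among them Klf2, a regulator of lymphocyte exit, at 875 CPM in 99 cells, Cxcr4 at 608 CPM, Gpr183 at 385 CPM, Ccr7 at 208 CPM in 43 cells and Cxcr5, the receptor for the follicle chemokine CXCL13, at 189 CPM in 49. Cxcr3, a receptor for interferon-induced chemokines, stood at 15.5 CPM. Among receptors of mature B cells, Cr2 (CD21) stood at 230 CPM in 48 cells and Fcer2a (CD23) at 99.3 CPM in 26. Cd83 (1129 CPM in 114 cells) and Cd69 (624 CPM in 83 cells) are known to rise after activation, and the co-stimulatory genes Cd86 and Cd80 stood at 220 and 6.21 CPM. Tnfrsf13b, a receptor for the survival factors BAFF and APRIL, stood at 124 CPM and Tnfrsf13c, the BAFF receptor, at 89.97 CPM. These are levels and not differences, and since UMIs were counted from 5′ ends they were not divided by gene length, so the order between genes is that of captured transcripts.

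Of 10 listed germinal center and cycling genes only Bach2, which restrains plasma cell fate and is also on in resting B cells, reached 100 CPM (577 CPM in 91 cells). Gcsam and S1pr2 had 1 UMI each, Bcl6 stood at 58.9 CPM in 14 cells, and Rgs13 had none. A total of 3 UMIs amounts to 9.31 CPM here, the level that a count of 0 allows. Mki67 was seen in 6 cells and Top2a in 7, both genes of dividing cells. Il10 had no UMI. Of the marginal zone and B1 list only Apoe, which is shared with the macrophage list, reached 100 CPM, and Cd9 (37.2 CPM), Cd1d1 (18.6 CPM) and Dtx1 (27.9 CPM) were low. Of the interferon response list 4 of 10 did, among them Ifi27l2a (1381 CPM), Ly6a (909 CPM) and Isg15 (195 CPM).

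B-marker cells were unevenly spread over the tumors. They came from 16 of 48 tumors, 8 isotype and 8 aPD1, and 86 of 169 came from 1 tumor, CC001 aPD1 of pool 4, where they made up 4.14% of 2075 cells (Wilson 3.37 to 5.09%). The CC079 isotype tumor of pool 5 gave 29 (1.22% of 2377 cells, 0.851 to 1.75%), CC007 isotype of pool 6 gave 11 (0.357%) and B6 isotype of pool 6 gave 10 (0.335%). In no other tumor were there more than 4. The next highest share, 0.201% in CC001 aPD1 of pool 2, had an interval (0.0783 to 0.516%) that did not reach that of either leading tumor. Tumors held between 53 and 3082 cells, so the 2075 of the leading tumor lie within the range of the others.

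Those 4 tumors allowed levels to be compared between animals, with counting intervals and no test, as each is 1 tumor. Cd79a stood at 2034 CPM (1823 to 2264) in CC001 aPD1 pool 4, 1862 (1421 to 2396) in CC079 isotype pool 5, 1900 (1241 to 2784) in CC007 isotype pool 6 and 1049 (691 to 1526) in B6 isotype pool 6. The first 3 overlapped, and the B6 value lay below the first. Ighd stood at 574 CPM (464 to 701), 900 (603 to 1292), 219 (45.2 to 641) and 155 (42.3 to 398) in the same order. Cr2 stood at 302 CPM (224 to 398) and 528 (307 to 844) in the leading pair, had 0 UMIs in the CC007 tumor, where 3 UMIs would be 219 CPM, and 77.7 (9.41 to 281) in the B6 tumor. Cd83 stood at 1509 CPM (1328 to 1708), 1148 (808 to 1582), 950 (506 to 1624) and 311 (134 to 612), lowest in B6. Cd69 stood at 851 CPM (717 to 1004), 558.5 (331 to 883), 1023 (559 to 1716) and 117 (24.03 to 341), again lowest in B6. Igkc was between 1315 and 1893 CPM in 3 tumors and 24085 CPM in the B6 tumor, whose secretory cell held 591 of the 620 UMIs there. That cell held 6992 and another 10949 of the 25742 UMIs summed over the 10 cells, so the B6 values largely describe these 2 cells.

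**Figure D3:**
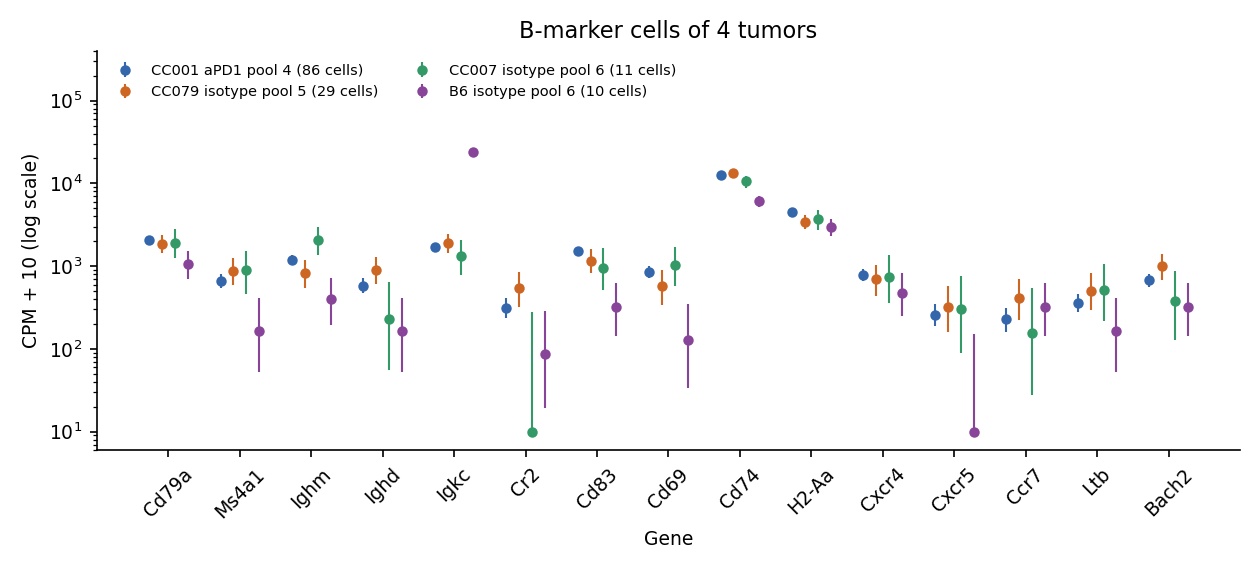
Summed expression of 15 genes (x axis) in the B-marker cells of the 4 tumors with at least 10 of them, as CPM + 10 on a log scale (y axis); points are the summed value of 1 tumor and bars its 95% Poisson interval, which covers counting error only. The CC001, CC079 and CC007 tumors lie close together for Cd79a, Cd74 and Cxcr4, and the B6 tumor stands out in Igkc (24085 CPM).

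B cell genes outside the cluster followed the pools. At least 2 UMIs of Cd79a and Ms4a1 together were found in 177 cells of the series, of which 139 lay in cluster 25, 28 in cluster 18 and 10 elsewhere (median 12773 UMIs). Of the 139, pools 1 to 6 gave 138. Of the 28, pools 7 to 12 gave all, from 9 tumors. Cluster 18 is otherwise a cluster of plasmacytoid dendritic cell markers, and its other 430 cells had 1636 CPM of Siglech and 1718 CPM of Klk1, while the 28 cells had no UMI of Siglech, Ccr9 or Klk1. They had instead Cd79a at 2049.7 CPM, Ms4a1 at 772 CPM, Pax5 at 426 CPM, Ighm at 1690.3 CPM, Ighd at 586 CPM and Cd74 at 13563 CPM, beside 1728, 596, 332, 1077, 428 and 11551 CPM in the B-marker cells of cluster 25. Cd79a and Ms4a1 chose the 28 cells, so high levels of both were set by that choice. The B-marker cells were chosen by another list, which holds Cd79a, Ms4a1, Pax5 and Ighd, so the levels of these genes are a description. At least 3 UMIs gave 117 cells in cluster 25, 24 in cluster 18 and 3 elsewhere. Cluster 25 therefore leaves out most cells with B cell genes of pools 7 to 12, and a share of its B-marker cells does not count the same population in earlier and later pools. What divides these cells between the clusters was not tested.

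**Figure D4:**
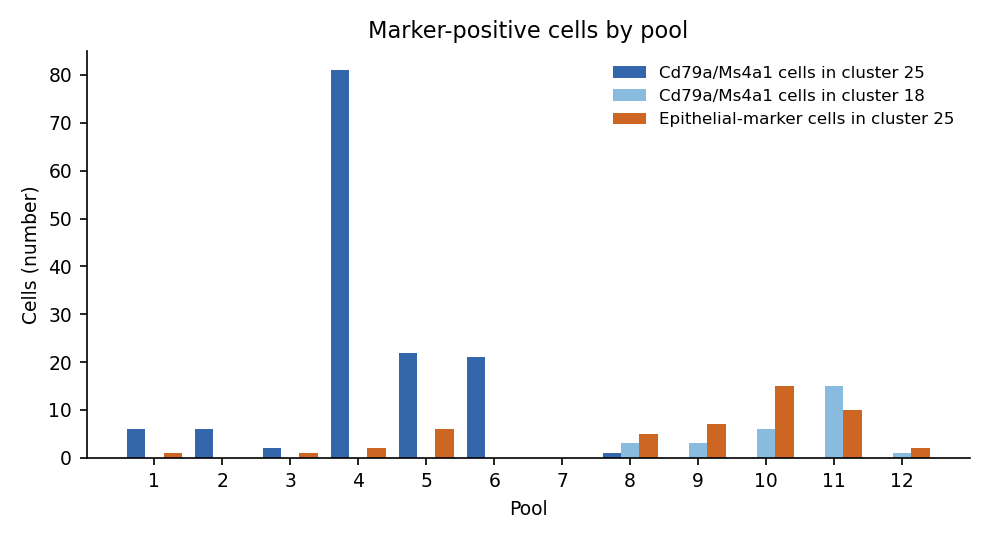
Number of cells (y axis) per pool (x axis) with at least 2 UMIs of Cd79a and Ms4a1 in cluster 25 (dark blue) and in cluster 18 (light blue), and of epithelial-marker cells of cluster 25 (orange); each bar is 1 pool of 4 tumors. Pool 4 has 81 of the cluster 25 cells, and the cluster 18 cells are in pools 8 to 12 only, with 15 in pool 11.

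Counted over all clusters, cells with at least 2 UMIs of these genes were found in 15 isotype and 11 aPD1 tumors. CC001 aPD1 of pool 4 had 74 of them (3.57% of its cells), CC079 isotype of pool 5 had 22 (0.926%), CC080 isotype of pool 11 had 14 (0.601%) and CC007 isotype of pool 6 had 10 (0.324%). Of 8 CC001 tumors 7 had at least 1, as did 4 of 6 tumors of CC075 and of CC080, 3 of 6 of CC036 and of B6, 2 of 6 of CC079 and of CC002, and 1 of 4 of CC007. In the leading tumor cluster 7, T cells with Tcf7 and Lef1, made up 6.22% of cells, rank 9 of 48 tumors.

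The epithelial-marker cells carried the keratins of simple epithelium. These and the adhesion and junction genes below stand in the list that chose the cells, so their presence is a description. Krt19 (chr11:100140810-100148665, minus strand) stood at 5702 CPM in 45 of 49 cells, Krt18 (chr15:102028180-102032027, plus strand) at 3353 CPM in 47, its partner Krt8 (chr15:101996698-102004482, minus strand) at 2865 CPM in 46 and Krt7 at 1027 CPM in 45. In the cells outside cluster 25 Krt18 stood at 0.140 CPM. Of the adhesion and junction genes, Epcam (chr17:87635979-87651129, plus strand) stood at 1704 CPM in all 49 cells, Cldn4 at 380 CPM in 36, Cldn7 at 309 CPM in 41 and Cdh1, E-cadherin, at 198 CPM in 38. Of the keratins of stratified epithelium, Krt5, Krt14 and Krt17 had no UMI, Krt1 had 1, Krt10 stood at 12.9 CPM in 6 cells and Krt15 at 10.7 CPM from 1 cell. Krt20, a keratin of intestinal epithelium, and Trp63, a regulator of basal epithelial cells, had none. A count of 0 allows up to 6.45 CPM here. Of the 12 genes of the keratinocyte list 2 reached 100 CPM, Sfn (206 CPM in 25 cells) and Dsp (118 CPM in 28 cells), and the list summed to 404 CPM.

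The other genes among the 10 of largest fold were Wfdc2 (chr2:164562413-164568510, plus strand), a secreted epithelial protein, at 2448 CPM in 43 cells, Ptn, a heparin-binding growth factor, at 7155 CPM in 43, Prlr (chr15:10177238-10349180, plus strand), the prolactin receptor, at 3826 CPM in 46, Fam25c at 1706 CPM in 43, and the fibrinogen chains Fgg (294 CPM in 24) and Fgb (451 CPM in 14). Further genes were named after their values were seen. Pgr (chr9:8899833-8968611, plus strand), the progesterone receptor, stood at 357 CPM in 38 cells, Esr1, the estrogen receptor, at 299 CPM in 42, Foxa1, a factor that works with it, at 329 CPM in 37, Aqp5, a water channel of glands, at 832 CPM in 38, and Areg, a growth factor of the EGF family, at 2375 CPM in 25. Of milk protein genes, Csn3 stood at 183 CPM in 6 cells, and Csn2 and Wap had no UMI.

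The MC38 gene of the list was not seen. Shisal2b (chr13:104845283-104863893, minus strand) had 0 UMIs in the 49 cells, whereas cluster 20, an unnamed cluster with 854 CPM of the collagen gene Col3a1, had 97.8 CPM of it in 392 of 3411 cells and 0.443 CPM of Krt8. The keratin-bearing cells are therefore called by their leading genes here, and they are not given a cell type name. Immune genes were mostly low as well, though 3 of 10 MHC class II genes reached 100 CPM and that list summed to 716 CPM. Ptprc, which encodes CD45, stood at 23.6 CPM in 4 cells against 859 CPM in the B-marker cells, and none of 5 immune cell genes reached 100 CPM. The macrophage list summed to 352 CPM, with Lyz2 the only gene above 100 CPM. Of the cell cycle list no gene reached 100 CPM and Mki67 had 1 UMI. In the B-marker cells the same list summed to 419 CPM and no gene of it reached 100 CPM.

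Epithelial-marker cells came from 21 tumors, at most 7 from one, and 39 of 49 came from pools 8 to 12. Levels could be set side by side for 4 tumors with 5 to 7 such cells. Krt19 stood at 3502 CPM (3065 to 3984) in CC036 isotype pool 10, 3372 (2935 to 3855) in CC080 isotype pool 11, 11586 (10832 to 12380) in CC075 isotype pool 10, 6023 (5053 to 7124) in CC079 isotype pool 5 and 5032 over the other tumors. The CC075 tumor was the highest. Prlr stood at 4913, 6082, 2606, 3587 and 3332 CPM in the same order, lowest in the CC075 tumor, and Areg at 0, 1465, 9139, 5004 and 875 CPM. Areg was thus at 0 in the CC036 tumor and highest in the CC075 tumor, where Krt19 was also highest. Shisal2b was at 0 in each. By treatment, Krt19 stood at 5588 CPM in the 36 isotype cells and 5950 CPM in the 13 aPD1 cells, and Epcam at 1620 and 1888 CPM. By pools, Fgg had no UMI in the 10 cells of pools 1 to 6 (median 4381 UMIs) and 328 CPM in the 39 cells of pools 7 to 12 (median 11061 UMIs), while Krt8 stood at 2373 and 2921 CPM and Epcam at 1957 and 1675 CPM.

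The 29 cells with neither list carried macrophage genes. All 8 macrophage genes reached 100 CPM and summed to 7359 CPM, 27 cells had a macrophage UMI and 21 had 5 or more, with Apoe at 2523 CPM, Lyz2 at 2537 CPM and Csf1r at 502 CPM. Each had fewer than 2 B class UMIs by the definition of the class, so no more than 1 Bank1 UMI was possible. Bank1 had 1 UMI in each of 18 cells (251 CPM), against 1.14% of cells of cluster 2 with a Bank1 UMI, and Cd79a had 1 UMI in 1 cell. Genes of the cells formed the cluster, so this contrast with cluster 2 is a description. They came from 11 tumors, 16 of them in pool 3 and 23 in pools 1 to 3. A cell of the CC079 aPD1 tumor of pool 2 was of another kind, with 257 UMIs of Igha, 254 of Jchain and no Cd79a, and 1 other had 10 Prlr UMIs.

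The design asks whether host strains that respond to aPD1 and those that do not differ in these cells, under isotype antibody or under aPD1. Both were read 48 h after the dose, and no tumor was taken before it. For the cluster and both marker classes, 6 comparisons of shares per tumor were made each, 18 in all. At an unadjusted p under 0.05 there were 5, and 1 passed 0.05 after Benjamini-Hochberg adjustment over the 18. All tests were two-sided permutation tests in which the tumor was the unit. The class is a property of the strain, with CC001, CC002 and CC075 against CC036, CC079 and CC080. Tumors of 1 strain were permuted as if independent. The p-values that compare the classes therefore do not cover differences between strains within a class and can be too small.

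Among isotype tumors, cluster 25 made up 0.0839% ± 0.101 of cells in responder strains (SD, n = 10, median 0.0572%, range 0 to 0.316%) and 0.365% ± 0.416 in non-responder strains (n = 9, median 0.268%, range 0 to 1.43%). In all, 4 responder tumors and 1 non-responder tumor had none, and 3 of 9 non-responder tumors lay above every responder tumor. The difference of -0.281 percentage points had an exact permutation p of 0.00722 (rank sum), and 0.0650 after adjustment, so it did not pass. Without the CC079 tumor of pool 5 it was -0.148 (exact permutation p = 0.0146, adjusted 0.131). Within pools 1 to 5 it was -0.347 (exact p = 0.0952, 5 against 5 tumors) and within pools 8 to 12 it was -0.203 (exact p = 0.0635, 5 against 4). Leaving out a strain moved the call, with -0.318 and an adjusted permutation p of 0.0275 without CC075, and -0.181 and 0.0236 without CC079. The mixture enters this value. B-marker cells differed by -0.144 percentage points (0.0228% ± 0.0482 and 0.167% ± 0.399, exact p = 0.303, adjusted 0.420), a value that was -0.0123 without the CC079 tumor of pool 5, and epithelial-marker cells by -0.0938 (0.0558% ± 0.101 and 0.150% ± 0.145, exact p = 0.184, adjusted 0.331).

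Among aPD1 tumors, cluster 25 made up 0.515% ± 1.30 (n = 10, median 0.120%, range 0 to 4.19%) in responder and 0.108% ± 0.118 (n = 9, median 0.0869%, range 0 to 0.408%) in non-responder strains, and the groups overlapped apart from the CC001 tumor of pool 4 (exact permutation p = 0.615, adjusted 0.615). Without that tumor the difference fell from 0.407 to -0.00176 percentage points. B-marker cells made up 0.476% ± 1.29 and 0.0170% ± 0.0372 (exact permutation p = 0.123, adjusted 0.308), with 5 of 10 responder tumors and 7 of 9 non-responder tumors at 0. Without the CC001 tumor the difference was 0.0509 instead of 0.459. Within pools 1 to 5 all 5 responder tumors had B-marker cells and 2 of 5 non-responder tumors did (difference 0.921, exact p = 0.0159, adjusted 0.143). In pools 8 to 12 the shares were 0 in both classes, since no B-marker cell of cluster 25 came from them. Epithelial-marker cells made up 0.0192% ± 0.0327 and 0.0458% ± 0.0422 (exact permutation p = 0.154, adjusted 0.308).

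**Figure D5:**
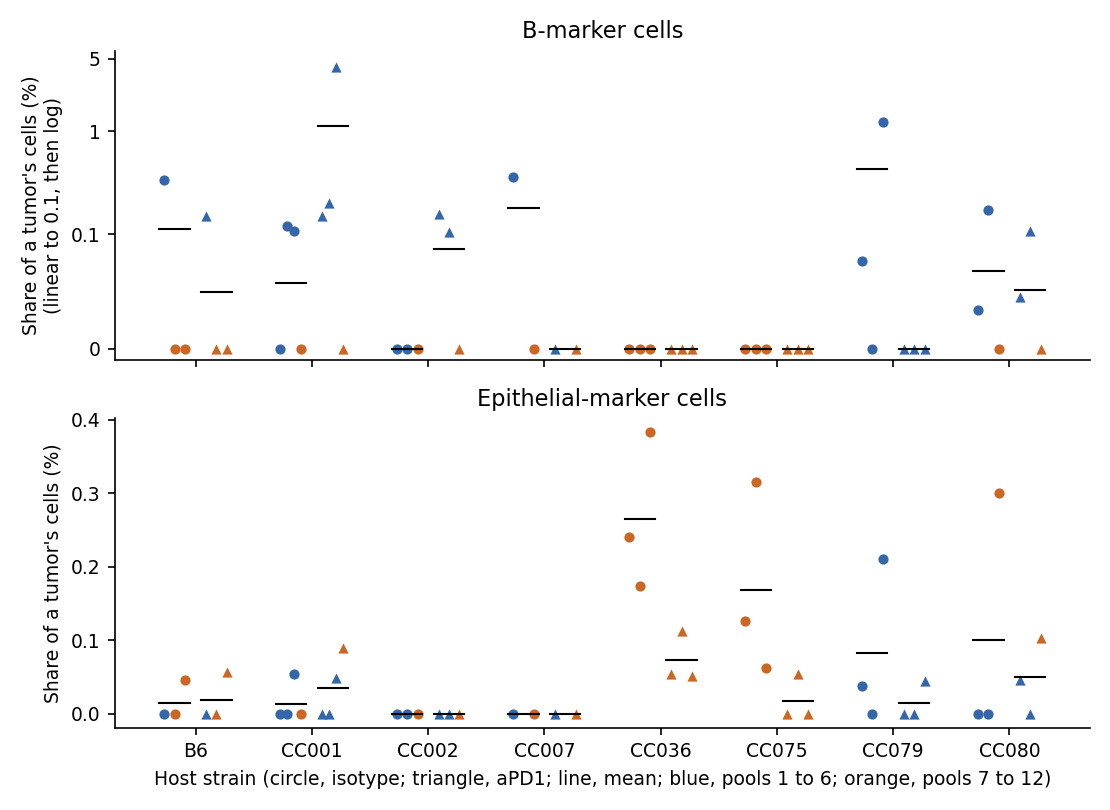
Share of a tumor's cells (y axis, percent) that were B-marker cells (upper panel, axis linear to 0.1 and logarithmic above) and epithelial-marker cells (lower panel, linear axis), by host strain (x axis); circles are isotype and triangles aPD1 tumors, blue marks pools 1 to 6 and orange pools 7 to 12, and lines are means. The CC001 aPD1 tumor of pool 4 stands at 4.14% in the upper panel, and CC036 has an epithelial-marker cell in every tumor.

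aPD1 tumors were then compared with isotype tumors within each class, unpaired, and the pairs of tumors of 1 pool and strain are counted beside each test. In responder strains the mean share of cluster 25 was 0.431 percentage points higher under aPD1 (permutation test, p = 0.381, adjusted p = 0.430). The aPD1 tumor was the higher one in 6 of 10 pairs and the lower one in 3, and the difference was 0.0221 without the CC001 aPD1 tumor of pool 4. It was 0.925 within pools 1 to 5 (exact p = 0.0317, adjusted 0.143) and -0.0631 within pools 8 to 12 (exact p = 0.524). In non-responder strains the difference was -0.258 (exact permutation p = 0.0251, adjusted 0.150), with the aPD1 tumor lower in 7 of 9 pairs. It was -0.124 without the CC079 isotype tumor of pool 5, -0.284 within pools 1 to 5 (exact p = 0.333) and -0.224 within pools 8 to 12 (exact p = 0.0286, the smallest that 4 against 4 can give, adjusted 0.257).

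For B-marker cells the difference was 0.453 in responder strains (permutation test, p = 0.113, adjusted p = 0.308), with 5 pairs higher, none lower and 5 equal. The 5 equal pairs were all of pools 9 to 12, from which cluster 25 held no B-marker cell. Over cells of any cluster with at least 2 UMIs of Cd79a and Ms4a1, these pairs were not all equal. The aPD1 tumor was higher for CC075 of pool 9 and CC001 of pool 12, and lower for CC075 of pools 10 and 11. CC002 of pool 12 had no such cell. In non-responder strains the difference was -0.150 (exact permutation p = 0.327, adjusted 0.420), with 3 pairs lower and 1 higher. Without the CC001 aPD1 tumor the first was 0.0451, and without the CC079 isotype tumor the second was -0.0180. Within pools 1 to 5 they were 0.906 (exact p = 0.0317, adjusted 0.143) and -0.269 (exact p = 0.238, adjusted 0.515). For epithelial-marker cells the differences were -0.0366 (permutation test, p = 0.482, adjusted p = 0.510), lower in 4 of 10 pairs and higher in 1, and -0.104 (exact permutation p = 0.295, adjusted 0.420), lower in 6 of 9 pairs.

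Whether the change from the isotype to the aPD1 tumor of a pair differed between the strain classes was tested itself. The difference between mean changes was 0.688 percentage points for cluster 25 (exact permutation p = 0.0424, adjusted 0.153) and 0.602 for B-marker cells (exact permutation p = 0.0412, adjusted 0.153), so neither passed after adjustment. For B-marker cells it was 0.204 without the CC001 aPD1 tumor of pool 4 (exact p = 0.0190, adjusted 0.113) and 0.469 without the CC079 isotype tumor of pool 5 (exact p = 0.406), and for cluster 25 it was 0.288 (exact p = 0.0532) and 0.547 (exact p = 0.176). Within pools 1 to 5 it was 1.18 for B-marker cells (exact p = 0.00794, the smallest that 5 against 5 can give, adjusted 0.143) and 1.21 for cluster 25 (exact p = 0.0635, adjusted 0.229), and within pools 8 to 12 it was 0.161 for cluster 25 (exact p = 0.119). For epithelial-marker cells it was 0.0671 (exact permutation p = 0.202, adjusted 0.331).

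Since 138 of the 139 Cd79a and Ms4a1 cells of cluster 25 came from pools 1 to 6, the same comparisons were run on cells of any cluster with at least 2 UMIs of Cd79a and Ms4a1, an alternative chosen after the data were seen. Among aPD1 tumors these cells made up 0.439% ± 1.10 in responder strains, with 2 of 10 tumors at 0, and 0.0177% ± 0.0379 in non-responder strains, with 7 of 9 at 0 (exact permutation p = 0.0198, adjusted 0.0892). Among isotype tumors it was 0.0818% ± 0.0968 and 0.242% ± 0.325 (exact permutation p = 0.343, adjusted 0.458). In non-responder strains the difference between aPD1 and isotype tumors was -0.225 percentage points (exact permutation p = 0.0167, adjusted 0.0892), in responder strains 0.357 (permutation test, p = 0.426, adjusted p = 0.479), and the changes differed by 0.582 (exact permutation p = 0.0339, adjusted 0.102). None passed after adjustment over the family. Without the CC001 aPD1 tumor of pool 4 the difference among aPD1 tumors was 0.0736 instead of 0.421 (exact permutation p = 0.0364, adjusted 0.109), that in responder strains 0.00949 (permutation test, p = 0.651, adjusted p = 0.690), and that between the changes 0.243 (exact permutation p = 0.0377, adjusted 0.109). Without the CC079 isotype tumor of pool 5 the difference among isotype tumors was -0.0753 instead of -0.161 (exact permutation p = 0.559, adjusted 0.651), that in non-responder strains -0.139 (exact permutation p = 0.0305, adjusted 0.110), and that between the changes 0.494 (exact permutation p = 0.142, adjusted 0.319).

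Among host strains only the share of epithelial-marker cells passed 0.05 after adjustment, and strain and pool were partly confounded in it. Epithelial-marker cells were found in 6 of 6 CC036 tumors, at a mean of 0.169% ± 0.127 (range 0.0514 to 0.383%), in 4 of 6 CC075 tumors (0.0930% ± 0.119), 3 of 6 CC080 tumors (0.0749% ± 0.118) and 3 of 6 CC079 tumors (0.0489% ± 0.0817), in 3 of 8 CC001 and 2 of 6 B6 tumors, and in 0 of 6 CC002 and 0 of 4 CC007 tumors. The permutation test of the Kruskal-Wallis statistic over 48 tumors gave p = 0.00187, adjusted 0.0337. It did not pass in tumors of at least 500 cells (adjusted permutation p = 0.0657) or over cells of any cluster with at least 2 UMIs of Krt7, Krt8, Krt18 and Krt19 (adjusted permutation p = 0.0666). Neighbours in this order differed by less than 1 SD. CC036 and CC075 occur only in pools 8 to 12, from which 39 of the 49 cells came, so strain and pool are partly confounded for them. CC007 occurs only in pools 6 and 7, where no tumor of any strain had an epithelial-marker cell. CC079 occurs only in pools 1, 2 and 5. Within pools 1 to 5 (4 strains) the permutation p was 0.487 and within pools 8 to 12 (6 strains) 0.157, and neither passed. The share of cluster 25 (permutation p = 0.382) and of B-marker cells (permutation p = 0.146) did not differ detectably among strains, at adjusted p of 0.430 and 0.308. The B-marker test cannot decide whether strains differ in B cells, since cluster 25 held no B-marker cell of pools 7 to 12. All CC036 and CC075 tumors were thus at 0. Over cells of any cluster with at least 2 UMIs of Cd79a and Ms4a1, CC036 had 5 and CC075 had 12. The highest strain mean of B-marker cells, 0.590% ± 1.44 in CC001 (n = 8), rests on the aPD1 tumor of pool 4, without which the highest was 0.216% in CC079, where 29 of the 31 cells came from the isotype tumor of pool 5.

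Gene expression within the classes could not be compared between conditions. Only 4 tumors had at least 10 B-marker cells, 1 of a responder and 1 of a non-responder strain, and by treatment 3 isotype and 1 aPD1. No tumor had 10 epithelial-marker cells. Sums of counts per tumor therefore gave no comparison with replicates on both sides.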

How the data were processed

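Cells of 48 MC38 tumors were sequenced in 12 pools. The deposited matrix holds raw UMI counts per gene and cell, which the authors obtained with Cell Ranger on GRCm38 and filtered before deposit for cells of high mitochondrial or ribosomal content. Clusters are the authors' (Seurat 5.0.1, harmony over processing dates). UMIs per pool ranged from 22854106 to 48824724 and cells per tumor from 53 to 3082.

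Here counts were summed over cells of a class and scaled to CPM, with Python 3.11.15, numpy 2.4.6, scipy 1.17.1 and pandas 2.3.3, and cluster 25 was reclustered with scanpy 1.11.5 (Leiden). A gene at 100 CPM was counted as present. Shares carry 95% Wilson and levels 95% Poisson intervals, which cover counting error only, and a count of 0 allows up to 3 counts. Gene positions are from GENCODE on GRCm38. Named genes were the fixed marker lists and the 10 genes of largest fold and at least 50 CPM in each class, and others are said where they stand to have been named after their values were seen. Members and lists were chosen with earlier results of these data known. Shares per tumor, with tumors grouped by hashtag, strain and pool, were compared by two-sided permutation tests of rank sums, mean changes or the Kruskal-Wallis statistic (exact, or 100000 resamples), adjusted over 18 tests and checked on simulated data. Nothing says that tumors of a strain were from separate litters or days. Tumors of 1 pool share a library, which makes the pool a pairing. Over 24 pairs of isotype and aPD1 tumors of the same pool and strain, deviations of cluster shares correlated with a median r of 0.308 (-0.323 to 0.767, 16 pairs over 0.1). The tumors of a pair share both pool and strain, and which of them the correlation reflects was not tested. Planned gene tests could not be fitted, since only 4 tumors had 10 B-marker cells and none had 10 epithelial-marker cells. No doublet caller was run. Some genes of the lists are counted in them but not reported here singly. Alternatives were the UMI threshold, thinning, the denominator, small tumors, the statistic, the pool as a block, single strains and tumors left out, and cells of any cluster.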

Additional observations from a re-analysis of the deposited data

Results flagged for a closer look

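Of 18 groups of tumors, 11 held a tumor far from the others by Dixon's criterion, and groups that overlap repeat the same tumors. Chance alone meets the criterion in about 1 in 20 groups when values are normally distributed, which many of these groups are not, being zeros and shares of a few cells, so the 11 cannot be read against that rate. The CC001 aPD1 tumor of pool 4 stood apart in cluster 25, at 4.19% against a next value of 0.272% among responder aPD1 tumors and 0.201% among CC001 aPD1 tumors, and in B-marker cells, at 4.14% against 0.201% in both groups. The CC079 isotype tumor of pool 5 stood apart among non-responder isotype tumors, at 1.43% against 0.383% for cluster 25 and 1.22% against 0.170% for B-marker cells. Among non-responder aPD1 tumors, CC080 of pool 3 had 0.408% of its cells in cluster 25 against 0.113%, and CC080 of pool 4 had 0.108% B-marker cells against 0.0453%. The CC075 isotype tumor of pool 10 had 0.316% in cluster 25 against 0.161% and, as all 6 of these cells were epithelial-marker cells, 0.316% against 0.127% in that class. The CC001 isotype tumor of pool 4 had 0.0536% epithelial-marker cells, which is 1 cell, while the other CC001 isotype tumors had none.

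The change with aPD1 differed between responder and non-responder strains by 0.688 percentage points for cluster 25 (exact permutation p = 0.0424, adjusted 0.153) and by 0.602 for B-marker cells (exact permutation p = 0.0412, adjusted 0.153). B-marker cells were higher in 5 and equal in 5 of 10 responder pairs, and lower in 3, equal in 5 and higher in 1 of 9 non-responder pairs. No B-marker cell came from pools 7 to 12, so pairs there were equal by the cluster. Over cells of any cluster with at least 2 UMIs of Cd79a and Ms4a1, CC075 of pools 10 and 11 was lower under aPD1. CC036 of pools 8 and 9, CC079 of pools 1 and 5 and CC080 of pools 3, 4 and 11 were lower too. Higher were CC001 of pools 1, 2, 4 and 12, CC002 of pools 3 and 5, CC075 of pool 9 and CC036 of pool 10. The pairs of CC002 of pool 12 and CC079 of pool 2 had none. Without the CC001 aPD1 tumor of pool 4 the values were 0.288 and 0.204 (exact permutation p = 0.0532 and 0.0190, adjusted 0.192 and 0.113), and without the CC079 isotype tumor of pool 5 they were 0.547 and 0.469 (exact permutation p = 0.176 and 0.406, adjusted 0.397 and 0.561).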

How the results depend on the processing

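Of 252 recomputed comparisons, 240 kept their direction and their side of an adjusted p of 0.05, 4 changed direction, 6 lost the threshold and 2 gained it. Only 1 of the 18 main results passed 0.05 after adjustment, so most comparisons had no threshold to lose. The 240 is therefore no measure of robustness. All 6 losses were of that 1 result, the differences among strains in epithelial-marker cells. The responder against non-responder difference in cluster 25 under aPD1 turned from 0.407 to -0.0359 percentage points without CC001, -0.00176 without its tumor of pool 4 and -0.0428 within pools 8 to 12, and the aPD1 against isotype difference in responder strains turned to -0.0631 within pools 8 to 12. The isotype difference in cluster 25 passed at -0.318 without CC075 and -0.181 without CC079. The spread of strain means of epithelial-marker cells, 0.169 percentage points, no longer passed with tumors of at least 500 cells (0.169, adjusted permutation p = 0.0657), within pools 1 to 5 (0.0489, 0.730), within pools 8 to 12 (0.202, 0.404) or over cells of any cluster with keratins (0.178, 0.0666, or 0.0733 and 0.0506 without the CC001 and CC079 tumors), and the adjusted p over its alternatives ran from 0.0148 to 0.730. The causes were not tested, except that fewer tumors or strains enter within pools. No value could be had for B-marker cells within pools 8 to 12, where all shares were 0. In the 12 comparisons run with the pool as a replicate block no call changed, for example -0.261 for cluster 25 among isotype tumors (exact permutation p = 0.0625, adjusted 0.149). At a threshold of 1 UMI, 5 cells carried both lists and 7 neither, after thinning 0 carried both, and a Leiden resolution of 1.0 gave 6 groups in place of 3. Leaving out single tumors, cells of any cluster and the split by pools of aPD1 and strain comparisons were chosen after the data were seen. Shallow B-marker cells and tumors with few cells limit what a count of 0 shows.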

Other observations

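Signals that attract or sustain B cells were read across the other clusters as a description. Cxcl13, the follicle chemokine, had 8352 of its 11034 UMIs in cluster 26 (93.8 CPM) and stood at 56.9 CPM in cluster 17. Tnfsf13b (BAFF) was also highest in cluster 26, at 48.6 CPM, and Tnfsf13 (APRIL) in cluster 4, at 84.4 CPM. The lymphoid tissue chemokines Ccl19 (22.1 CPM) and Ccl21a (4.16 CPM, 13 of 15 UMIs) were highest in cluster 22. Helper cytokine genes were highest in cluster 10, with Il21 at 68.5 CPM (130 of 216 UMIs) and Il4 at 89.5 CPM, while Cd40lg stood at 251 CPM in cluster 23 and 239 CPM in cluster 10. Ltb, a lymphotoxin chain that B-marker cells carried at 354 CPM, was highest in cluster 23 at 751 CPM.

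Cells with at least 5 UMIs of Jchain and Mzb1 also occurred outside cluster 25. There were 21, of which 16 lay in cluster 18. Of the 28 cells of that cluster with at least 2 UMIs of Cd79a and Ms4a1, only 2 were among the 16. The rest lay among its 430 other cells, which carried plasmacytoid dendritic cell markers. In those 430, 3 of 10 plasma cell list genes reached 100 CPM, and 348 cells had a UMI of that list. In the epithelial-marker cells 1 of the 10 did, and 34 of 49 cells had such a UMI. In cluster 20 none did, and 1514 of 3411 cells had one. A UMI of the list alone therefore does not mark a plasma cell.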
